A study of Mus musculus with 2 samples.

Results

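The genes described here are 8 genes known for their work in fat cells: Ucp1, Cidea, Adipoq, Fabp4, Plin1, Pparg, Lpl and Car3. They are 8 of the 43346 genes in the gene tables of 2 total RNA libraries from the thymus of newborn B6NCrl mice. They were chosen by symbol, with their measured levels and their difference between the libraries already known, so those levels and differences are given as a description with no test. The thymus is the organ in which T cells mature. Each library came from both lobes of 1 pup at postnatal day 0. Replicate 1 was pup 2 and replicate 2 was pup 3 of 1 litter, the sex was not collected, and no treatment or genotype set the pups apart. With 1 group of 2 libraries there is no comparison of conditions. Each ratio below is replicate 1 over replicate 2, and no p-value is given.

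Fat cells store triglyceride in lipid droplets and release it as fatty acids. White fat cells hold fuel and secrete hormones such as adiponectin, whereas brown fat cells burn fatty acids for heat through the mitochondrial uncoupling protein UCP1. Both kinds depend on the nuclear receptor PPARγ, which switches on genes for lipid uptake, binding and droplet coating. Brown fat of newborn mice lies between the shoulder blades and around the chest, and fat also borders the thymus. Several of the 8 genes are not private to fat: Fabp4 is also made by capillary endothelium and macrophages, Lpl by muscle and macrophages, and Car3 by skeletal muscle and liver.

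Gene counts summed to 39045711 in replicate 1 and 41576378 in replicate 2. The tissue label was checked against its markers: all 10 thymocyte markers and all 10 thymic epithelial markers were detected, which here means at least 1 TPM in both libraries. TPM, the deposited unit of level, is per transcript length and per library. A chi-square statistic over genes was 23.4 per gene against counting noise alone, so the tables are not 1 library deposited under both labels. Over the 14155 genes averaging at least 50 counts, the median log2 ratio was -0.02, and the central 95% of genes lay between -0.47 and 0.69. Spike-in RNA made up 659 counts in replicate 1 and 427 in replicate 2. With edgeR's TMM scaling, 164 genes were over 2-fold higher in replicate 1 and 28 in replicate 2. With spike-in scaling these were 30 and 975, and the all-gene median shifted to -0.71. Spike-in scaling lowered the median by 0.69, so most genes and lists given below as higher in replicate 1 by less than that turn round under it.

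The promoters of Ucp1 and Adipoq are shown because both genes were over 2-fold higher in replicate 1, and the region upstream of the third of 3 RefSeq starts of Pparg because the 2 Pparg forms are followed separately below. Each is the 250 bases before a RefSeq start site (GRCm38.p6), written 5′ to 3′ on the plus strand, with positions counted back from -1 at the base before the start. Capitals mark matches on either strand to TATANA, to CCAAT or to AGGTCA, the half-site bound by many nuclear receptors. The Ucp1 window is chr8:83290098-83290347, the Adipoq window chr16:23146286-23146535 and the Pparg window chr6:115421816-115422065.
Ucp1 promoter: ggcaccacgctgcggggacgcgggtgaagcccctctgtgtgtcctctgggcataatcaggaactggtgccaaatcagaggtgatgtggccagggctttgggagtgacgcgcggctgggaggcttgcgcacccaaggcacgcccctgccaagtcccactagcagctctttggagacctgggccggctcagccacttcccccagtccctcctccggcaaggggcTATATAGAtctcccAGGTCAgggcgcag
Adipoq promoter: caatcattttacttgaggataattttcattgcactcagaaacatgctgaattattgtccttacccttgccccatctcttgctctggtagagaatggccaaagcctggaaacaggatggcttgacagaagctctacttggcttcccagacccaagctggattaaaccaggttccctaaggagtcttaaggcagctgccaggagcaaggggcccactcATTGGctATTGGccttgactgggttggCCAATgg
Pparg downstream start: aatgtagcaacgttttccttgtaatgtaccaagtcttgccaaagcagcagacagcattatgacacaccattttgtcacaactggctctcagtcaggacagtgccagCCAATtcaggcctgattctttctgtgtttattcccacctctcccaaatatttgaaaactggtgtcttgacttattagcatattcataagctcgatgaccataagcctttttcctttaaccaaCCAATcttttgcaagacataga

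The Ucp1 window held overlapping TATANA matches at -28 to -23 and at -26 to -21, and an AGGTCA match at -14 to -9. The Adipoq window held 3 CCAAT matches, at -34 to -30, -27 to -23 and -7 to -3, of which the first 2 read ATTGG on the plus strand. The Pparg window held CCAAT matches at -144 to -140 and at -22 to -18. Of the Pparg windows not printed, that of the first start held AGGTCA at -28 to -23. That of the second start held TATANA at -29 to -24 and -27 to -22, CCAAT at -83 to -79 and AGGTCA at -9 to -4. The matches in these unprinted windows all lie downstream of position 115360951, where the annotated Pparg-202 starts. Among 32851 promoters of that length in the RefSeq table, 22.6% held TATANA, 33.8% held CCAAT and 14.0% held AGGTCA, so none of these letters is rare. The window before Plin1 held none of the 3 motifs. Promoters of the other 5 genes are not printed. These include Plin1 and Car3, which were also over 2-fold higher in replicate 1, and the promoter set used had no window for Car3.

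Of the 8 genes, 4 were detected: Fabp4, Car3, Lpl and Pparg. Of all 43346 genes, 13957 were detected and 17332 had 0 counts in both libraries. The 8 genes spanned a wide range, with Fabp4 at 189 TPM or more and Ucp1, Cidea and Plin1 below 1 TPM in both libraries. Their median level was 4.29 TPM in replicate 1 and 0.825 TPM in replicate 2, and their summed level was 302 and 202 TPM. The order of levels was Fabp4, Car3, Lpl, Pparg, Adipoq, Ucp1, Cidea and Plin1 in replicate 1. In replicate 2, Lpl and Pparg stood above Car3, and Cidea stood above Ucp1. The bounds deposited with the TPM values, whose level is not given in the sources used here, did not overlap between Fabp4, Car3, Lpl and the genes below them in replicate 1. The bounds of Pparg and Adipoq overlapped there, as did those of Ucp1, Cidea and Plin1. In replicate 2 the bounds of each gene from Car3 down overlapped those of the next in order: Car3, Adipoq, Cidea, Ucp1 and Plin1.

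**Figure D1:**
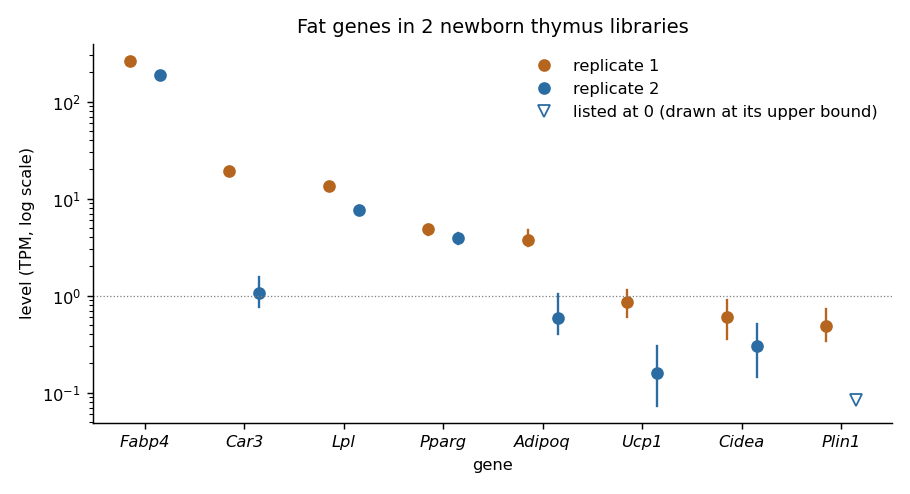
Level of each gene in TPM on a log axis, replicate 1 (brown) left of replicate 2 (blue), with the bounds deposited with each value as lines. Fabp4 stood at 259 and 189 TPM, Car3 at 19.3 and 1.07 TPM, and Plin1, listed at 0 in replicate 2, is drawn there at its upper bound. The dotted line is at 1 TPM.

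All 8 genes were higher in replicate 1 by their scaled counts, by amounts that differed greatly from gene to gene. Their median log2 ratio was 1.62, a 3.07-fold difference, and it is the same with Plin1 at its lower bound. Under spike-in scaling the median was 0.95, and Fabp4 (log2 ratio -0.27) and Pparg (-0.43) were lower in replicate 1. Of the 5 genes with a mean count of at least 50, Car3 and Adipoq were over 2-fold higher in replicate 1, against 1.16% of all genes at that depth. No member was over 2-fold higher in replicate 2, against 0.198% of all genes. With a mean count of at least 10, where all 8 genes count, 4 were over 2-fold higher in replicate 1 (Car3, Adipoq, Ucp1 and Plin1), against 3.51% of genes, and none in replicate 2, against 1.20%. Because the choice of genes used this difference, nothing is read from these counts. In bulk RNA, fewer cells of a type and less RNA per cell cannot be told apart.

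**Figure D2:**
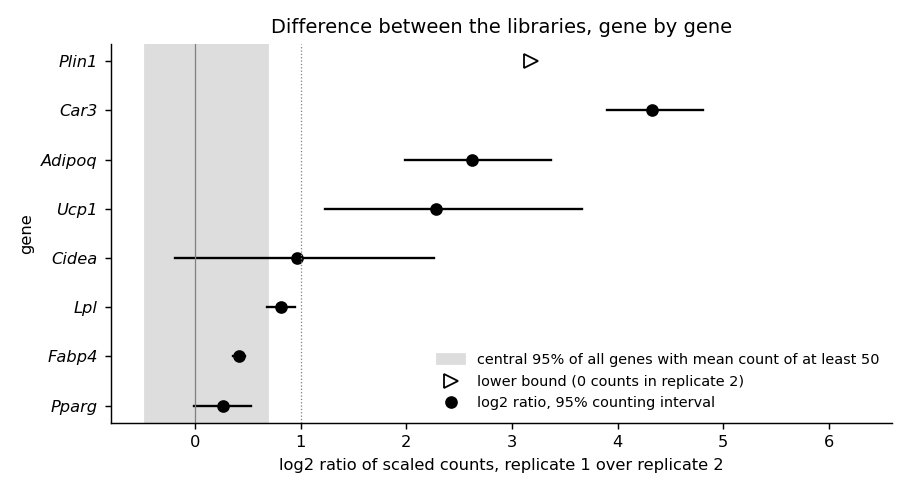
Log2 ratio of scaled counts, replicate 1 over replicate 2, for each gene, with exact 95% intervals for counting error; the grey band holds the central 95% of all genes counted at least 50 times on average. The points of Car3 (4.32), Adipoq (2.62), Ucp1 (2.28), Cidea (0.96) and Lpl (0.81) lie to the right of the band. So does the lower bound of Plin1, at 3.18, whereas Fabp4 and Pparg lie inside it. The intervals of Cidea and Lpl reach into the band. Ucp1, Cidea and Plin1 average under 50 counts, so the band does not describe genes of their depth. Among genes averaging 10 to under 50 counts, 12.2% were over 2-fold higher in replicate 1.

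Ucp1 and Cidea, the thermogenic genes among the 8, had fewer than 40 counts in each library. Ucp1 (ENSMUSG00000031710.3, chromosome 8, 83290352 to 83298452, plus strand, GRCm38), the uncoupling protein that makes brown fat produce heat, was at 0.86 TPM in replicate 1 and 0.16 TPM in replicate 2 (mean 0.51 ± 0.495, SD, n = 2). These levels rest on 39 counts (exact 95% Poisson interval 27.7 to 53.3) and 8 counts (3.45 to 15.8). The intervals did not overlap, and the scaled ratio was 4.85-fold with an exact binomial 95% interval of 2.35 to 12.6. All such intervals cover counting error alone, since without molecular identifiers several reads can stem from 1 molecule. At this depth large ratios are common: 12.2% of genes with a mean count of 10 to under 50 were over 2-fold higher in replicate 1.

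Cidea (ENSMUSG00000024526.8), a lipid droplet protein abundant in brown fat, was at 0.60 TPM in replicate 1 and 0.30 TPM in replicate 2 (0.45 ± 0.212, n = 2). The counts were 19 (11.4 to 29.7) and 10 (4.80 to 18.4), and their intervals overlapped. Its ratio of 1.94-fold had an interval of 0.879 to 4.78, so a difference was not detectable at this depth. The noncoding gene B430212C06Rik lies on the other strand within the span of Cidea without sharing an exon and was at 0.35 and 0.28 TPM.

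The uncoupling protein family was led by another member. Ucp2, a mitochondrial carrier of lymphocytes and macrophages that is not the heat-producing protein, was at 704 TPM in replicate 1 and 795 TPM in replicate 2. Slc25a14 was at 10.9 and 12.3 TPM and Slc25a30 at 2.32 and 3.23 TPM, whereas the muscle form Ucp3 was at 0.10 and 0.12 TPM. Of the 6 family genes, 3 were detected, and Ucp1 alone of the 5 with a mean count of at least 10 was over 2-fold higher in replicate 1. At that minimum 3.51% of all genes were.

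The wider brown fat list held 18 genes, of which 7 were detected. Its median log2 ratio was 0.28 over the 14 genes with a mean count of at least 10, beside -0.01 over all such genes. Those 14 include Ucp1 and Cidea, which were chosen with this difference already known. Medians of lists given below share this limit where they hold any of the 8 genes. Of the 14, 1 (Ucp1) was over 2-fold higher in replicate 1, against 3.51% of all genes. In replicate 2 it was 1 (Ppargc1a), against 1.20%. Ppargc1a, the coactivator that drives mitochondrial genes in brown fat, had 8 counts in replicate 1 and 20 in replicate 2. The highest genes were Cox7a1, a subunit of cytochrome oxidase in muscle and brown fat, at 10.2 and 8.06 TPM, the glycerol kinase gene Gk at 7.67 and 6.87 TPM, and Prdm16, a transcriptional regulator of brown fat identity, at 5.41 and 6.26 TPM. The ratio of Prdm16 was 0.879-fold (0.761 to 1.01), so it did not follow Ucp1. Other markers of active brown fat were scarce in both libraries: the thyroid hormone deiodinase Dio2 was at 0.18 and 0.10 TPM, the lipid elongase Elovl3 at 0.02 and 0.23 TPM, and the β3-adrenergic receptor gene Adrb3 at 0.03 and 0.02 TPM. The cytochrome oxidase subunit Cox8b was at 2.58 and 1.55 TPM, from 20 and 13 counts.

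Among genes for secreted products, Adipoq and Cfd alone were over 2-fold higher in replicate 1. Adipoq (ENSMUSG00000022878.5, chromosome 16, 23146536 to 23158028, plus strand), which encodes the fat cell hormone adiponectin, was at 3.75 TPM in replicate 1 and 0.58 TPM in replicate 2 (2.17 ± 2.24, n = 2). It had 132 counts (110 to 157) and 22 counts (13.8 to 33.3), which do not overlap. The ratio was 6.16-fold (3.98 to 10.4), rank 14 of 14155 genes from the highest in replicate 1. Of genes with a mean count of 50 to under 200, 4.55% were over 2-fold higher in replicate 1. All of its reads were assigned to Adipoq-201, the transcript that starts beside the printed promoter.

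The list of 12 secreted products had 6 detected genes and a median log2 ratio of 0.04 over 10 genes. Cfd, which encodes the fat-rich complement protease adipsin, had 80 counts in replicate 1 and 2 in replicate 2, that is 3.29 and 0.08 TPM. Its ratio was 33.5-fold with a counting interval of 11.2 to 351. Cfd had a mean count of 10 to under 50, where 12.2% of all genes were over 2-fold higher in replicate 1. In the list, 2 of 10 genes were (Adipoq and Cfd), against 3.51% of all genes with a mean count of at least 10. Adipoq was chosen with this difference known. For 2 further hormone genes of white fat the counts were few: Lep (leptin) had 4 and 2 counts and Retn (resistin) 28 and 21 counts. The highest genes of the list were Angptl4, an inhibitor of lipoprotein lipase, at 23.5 TPM in replicate 1 and 30.3 TPM in replicate 2, Fgf21 at 14.7 and 17.4 TPM and Metrnl at 5.48 and 5.77 TPM, all 3 lower in replicate 1. The white and beige fat list, with 5 of 14 genes detected, had a median log2 ratio of -0.05 over 10 genes and none over 2-fold. It was led by Tnfrsf9, also a costimulatory receptor of T cells, at 6.90 and 7.67 TPM. Next were Nnat at 3.59 and 3.62 TPM and Tmem26 at 2.00 and 2.00 TPM. With a mean count of at least 10, 3.51% of all genes were over 2-fold higher in replicate 1 and 1.20% in replicate 2. Nothing is read from a list this short having none.

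Plin1 was counted in 1 library alone. Plin1 (ENSMUSG00000030546.10, chromosome 7, 79720218 to 79732903, minus strand), the perilipin that coats the lipid droplet of fat cells and gates lipolysis, had 26 counts in replicate 1 (17.0 to 38.1) and 0 counts in replicate 2. Its level was 0.49 TPM in replicate 1 and is listed at 0 in replicate 2, where a count of 0 allows up to 3 counts. Against that floor, and with its 26 counts taken as they stand, Plin1 was at least 9.06-fold higher in replicate 1. The exact binomial 95% interval of its ratio, which also covers the error of those 26 counts, starts at 6.86-fold. The counts of replicate 1 were divided between Plin1-201, at 0.22 TPM, and Plin1-202, at 0.27 TPM, with deposited bounds that overlap (0.0160 to 0.471 and 0.0365 to 0.530).

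Among the other droplet genes, those typical of fat cells had few counts and those of all cells many. Cidec, which fuses droplets in white fat, had 37 counts in replicate 1 and 10 in replicate 2, a ratio of 3.73-fold (1.89 to 8.73). Plin5, the perilipin of oxidative tissues, named here after its values were seen, had 20 and 5 counts, a ratio of 3.89-fold (1.52 to 14.3). The perilipins that most cells use were abundant and close in the 2 libraries, Plin3 at 75.1 and 74.0 TPM and Plin2 at 52.1 and 59.7 TPM, and so was the seipin gene Bscl2 at 52.0 and 45.4 TPM. Plin4, another perilipin of fat, was at 0.07 TPM in both libraries. Of the 12 droplet genes 5 were detected, and over 10 genes the median log2 ratio was 0.06. Plin1, Cidec and Plin5 were over 2-fold higher in replicate 1, and Plin1 was chosen with this difference known. All 3 had a mean count of 10 to under 50, where 12.2% of all genes were over 2-fold higher in replicate 1.

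Pparg (ENSMUSG00000000440.8, chromosome 6, 115360951 to 115490399, plus strand) encodes PPARγ, the nuclear receptor at the head of fat cell differentiation, which macrophages also use. It was at 4.83 TPM in replicate 1 and 3.89 TPM in replicate 2 (4.36 ± 0.665, n = 2), from 248 counts (218 to 281) and 217 counts (189 to 248). The Poisson intervals overlapped, and the ratio of 1.19-fold had an interval of 0.992 to 1.44, so no difference was detectable beyond counting error. Its rank by ratio was 1958 of 14155. The annotated antisense gene Gm44079 lies within the span of Pparg without sharing an exon and was not analysed here.

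The gene makes 2 annotated forms from separate starts. Pparg-202 starts upstream and encodes the 475 residues of PPARγ1, the form found in many tissues. Pparg-201 starts downstream at position 115422066, behind the third window printed above, and encodes the 505 residues of PPARγ2, the form largely restricted to fat. The coding part of its first exon, which Pparg-202 lacks, is 82 bases long at chr6:115422111-115422192 on the plus strand (GRCm38). It is printed in lower case with the start codon at its beginning, because reads on it tell the forms apart.
Pparg-201 first exon, coding: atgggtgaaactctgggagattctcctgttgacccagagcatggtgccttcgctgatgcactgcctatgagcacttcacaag

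Pparg-201 was assigned 49.6 counts and 1.01 TPM in replicate 1, against 10.3 counts and 0.19 TPM in replicate 2. It made up 20.8% of the gene's TPM in replicate 1 and 5.0% in replicate 2 (12.9% ± 11.2, SD, n = 2). Pparg-202 was at 3.83 and 3.69 TPM, nearly level. The difference in Pparg as a gene thus lay mostly in the estimates for Pparg-201. These estimates are loose: the deposited bounds of Pparg-201 were 0.000109 to 2.35 TPM in replicate 1 and 5.02e-06 to 1.79 TPM in replicate 2, and they overlap nearly in full. The other members of the PPAR family were lower, Ppard at 2.33 and 1.92 TPM and Ppara at 0.58 and 0.39 TPM.

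**Figure D3:**
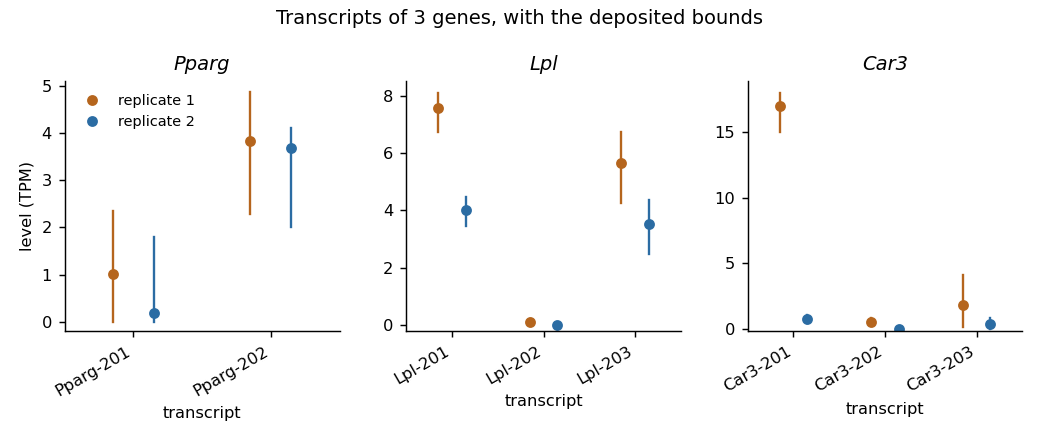
Level in TPM of each transcript of Pparg, Lpl and Car3 that was above 0 in a library, replicate 1 (brown) left of replicate 2 (blue), with the deposited bounds as lines. Pparg-201 stood at 1.01 and 0.19 TPM with overlapping bounds, whereas Lpl-201 and Car3-201 had bounds that did not overlap.

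Other transcription factors of fat cells differed little. Of 14 listed, 11 were detected and the median log2 ratio was 0.05. The 13 with a mean count of at least 50 had log2 ratios from -0.41 to 0.32. None of the 14 was over 2-fold in either direction. With a mean count of at least 10, 3.51% of all genes were over 2-fold higher in replicate 1 and 1.20% in replicate 2. Nothing is read from a list this short having none, here or in the list of precursors. The highest were Srebf1, a regulator of lipid synthesis, at 81.0 and 66.7 TPM, the mediator subunit gene Med1 at 62.3 and 56.6 TPM, and Klf15 at 8.51 and 11.0 TPM. Cebpa, the partner of PPARγ in fat cells, was at 4.80 and 4.09 TPM. The preadipocyte factors Ebf2 and Zfp423 were at 0.62 and 0.70 TPM and at 0.68 and 1.17 TPM. In the list of fat cell precursors, 8 of 10 genes were detected with a median log2 ratio of -0.19 and none over 2-fold. It was led by surface proteins that lymphoid or stromal cells also carry: Ly6a at 77.9 and 72.5 TPM, Dpp4 at 55.8 and 47.5 TPM, and Dlk1, the preadipocyte factor, at 26.8 and 36.7 TPM.

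Lpl and Fabp4 handle fatty acids from the blood and were well measured in both libraries. Lpl (ENSMUSG00000015568.11, chromosome 8, 68880491 to 68907448, plus strand), the lipase that frees fatty acids from lipoproteins at the capillary wall, was at 13.3 TPM in replicate 1 and 7.57 TPM in replicate 2 (10.4 ± 4.07, n = 2). It had 1203 counts (1136 to 1273) and 717 counts (665 to 771), which do not overlap. The ratio was 1.75-fold (1.60 to 1.93), rank 261 of 14155 and above the central 95% of genes. Among genes with a mean count of 200 to under 1000, 0.618% were over 2-fold higher in replicate 1, and Lpl was not one of them. Under spike-in scaling the log2 ratio of Lpl was 0.12.

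Lpl reads were divided between the coding Lpl-201, at 7.56 TPM in replicate 1 and 4.02 TPM in replicate 2, and Lpl-203, at 5.65 and 3.54 TPM. Lpl-203 is annotated as a target of nonsense-mediated decay. Lpl-201 made up 56.7% and 53.0% of the gene's TPM, so the forms kept similar shares. Of the 9 genes of the lipase family 4 were detected. After Lpl came the endothelial lipase gene Lipg at 3.81 and 3.20 TPM and Pla1a at 2.30 and 1.85 TPM.

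Fabp4 (ENSMUSG00000062515.3, chromosome 3, 10204088 to 10208576, minus strand), a cytosolic carrier of fatty acids, was the highest of the 8 genes at 259 TPM in replicate 1 and 189 TPM in replicate 2 (224 ± 49.7, n = 2). It ranked 616 and 882 among all genes by TPM. It had 6221 counts (6067 to 6378) and 4866 counts (4730 to 5005), which do not overlap. The ratio was 1.34-fold (1.29 to 1.39) and lay within the central 95% of genes. Among genes with a mean count of 1000 or more, 0.137% were over 2-fold higher in replicate 1, and Fabp4 was not one of them. Fabp4-201, the coding transcript, made up 99.5% and 99.6% of the TPM.

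Within its protein family Fabp4 was second to Fabp5, a carrier of epidermal and other cells, at 895 TPM in replicate 1 and 937 TPM in replicate 2. The retinoic acid binder Crabp2 came next at 29.2 and 31.5 TPM. Of 15 family genes 10 were detected, and over 14 genes the median log2 ratio was -0.06. Rbp2, named here after its values were seen, was the 1 gene over 2-fold higher in replicate 1, at 1.38 and 0.13 TPM. At a mean count of at least 10, 3.51% of all genes were over 2-fold higher in replicate 1.

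Partners of Lpl in fatty acid uptake were measured beside it. GPIHBP1 anchors the lipase on capillaries, and Gpihbp1 was at 42.8 TPM in replicate 1 and 41.5 TPM in replicate 2. Cd36, a fatty acid transporter, was at 26.4 and 21.2 TPM, a ratio of 1.21-fold (1.14 to 1.28). The lipase inhibitor gene Angptl4, given above, had a ratio of 0.757-fold (0.704 to 0.813). Of the 12 genes of capture and uptake, 11 were detected, and the median log2 ratio was 0.06 over 11 genes. None of these 11 was over 2-fold. With a mean count of at least 10, 3.51% of all genes were over 2-fold higher in replicate 1 and 1.20% in replicate 2.

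Car3 had the largest difference among the 8 genes after scaling, leaving aside Plin1, which has only a bound. Car3 (ENSMUSG00000027559.5, chromosome 3, 14863512 to 14872523, plus strand), carbonic anhydrase III of fat, muscle and liver, was at 19.3 TPM in replicate 1 and 1.07 TPM in replicate 2 (10.2 ± 12.9, n = 2). It had 849 counts (793 to 908) and 44 counts (32.0 to 59.1), far apart. The ratio was 20.0-fold (14.9 to 28.0), rank 9 of 14155, and under spike-in scaling its log2 ratio was 3.63 in place of 4.32. Of genes with a mean count of 200 to under 1000, as Car3 has, 0.618% were over 2-fold higher in replicate 1. Car3 ranked 6235 among all genes by TPM in replicate 1 and 14075 in replicate 2.

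The coding transcript Car3-201 was at 17.0 TPM in replicate 1 and 0.72 TPM in replicate 2. Car3-203, annotated as a retained intron, was at 1.79 and 0.35 TPM from 37.2 and 7.82 assigned counts, and so made up 9.26% and 32.6% of the gene's TPM. The bounds of Car3-203 overlapped (0.149 to 4.10 and 2.28e-05 to 0.829 TPM).

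The other carbonic anhydrase genes did not share this difference. Of the 16 family genes 8 were detected, and Car3 alone of the 13 with a mean count of at least 10 was over 2-fold. At that minimum 3.51% of all genes were over 2-fold higher in replicate 1 and 1.20% in replicate 2. Car4, a membrane form, was at 8.32 and 7.47 TPM, and Car2, the widespread cytosolic form, at 8.09 and 6.97 TPM. Car2, Car1 and Car13 lie on chromosome 3 with Car3, and had ratios of 1.12-fold, 1.13-fold and 1.15-fold.

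**Figure D4:**
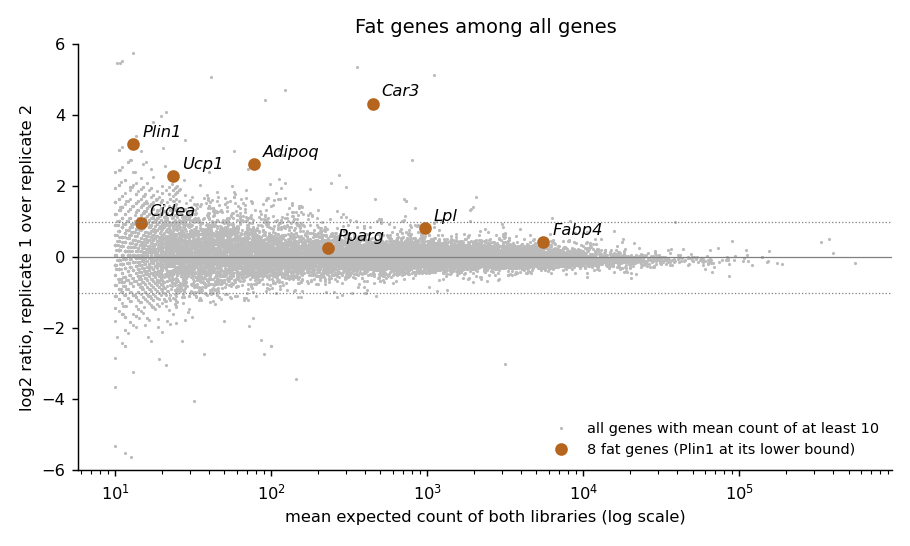
Log2 ratio, replicate 1 over replicate 2, against the mean count on a log axis for genes with a mean count of at least 10 (grey) and the 8 fat genes (brown, Plin1 at its lower bound); 17967 genes are drawn and 19 lie beyond the vertical axis. Car3 stands far above genes of like count, and Cidea lies within the broad spread of genes with few counts; grey genes with 0 counts in a library are drawn at their fitted ratio.

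Enzymes of lipid storage and use were mostly level between the libraries, with a pair of exceptions in triglyceride synthesis. Of its 8 genes 5 were detected and the median log2 ratio was 0.08 over 7 genes. Gpd1, which makes glycerol phosphate for triglyceride, had 119.76 counts in replicate 1 and 21.61 in replicate 2, a ratio of 5.60-fold (3.60 to 9.44), rank 15 of 14155, next to Adipoq. Pck1, which feeds glycerol synthesis in fat, had 97 and 35 counts, a ratio of 2.87-fold (1.95 to 4.40). Gpd1 and Pck1 both had a mean count of 50 to under 200, where 4.55% of all genes were over 2-fold higher in replicate 1. The higher genes of the list did not differ this way: Dgat1 was at 19.4 and 16.2 TPM, Agpat2 at 12.1 and 12.4 TPM and Dgat2 at 5.88 and 5.39 TPM.

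The lipolysis list had 8 of 11 genes detected, a median log2 ratio of 0.04 and none over 2-fold. It was led by the protein kinase A gene Prkaca at 52.5 and 54.2 TPM, Pnpla2, the adipose triglyceride lipase gene, at 40.7 and 39.9 TPM and Mgll at 33.0 and 31.7 TPM; the hormone-sensitive lipase gene Lipe was at 6.21 and 5.81 TPM. Fatty acid synthesis had 8 of 11 detected, a median of 0.02 and none over 2-fold. Its highest genes were Acly at 81.8 and 90.5 TPM, Srebf1, given above, and Scd2 at 56.7 and 57.8 TPM; Fasn was at 18.02 and 20.48 TPM and Scd1, the desaturase of fat and liver, at 1.23 and 0.85 TPM. Fatty acid oxidation had 11 of 12 detected, a median of -0.02 and none over 2-fold, with Acaa2 at 216 and 233 TPM, Hadhb at 159 and 151 TPM and Hadha at 84.2 and 99.0 TPM. The insulin response list had 9 of 10 detected, a median of 0.06 and none over 2-fold, with Akt2 at 61.9 and 60.6 TPM, Cavin1 at 52.9 and 50.5 TPM and Cav1 at 38.2 and 34.9 TPM. Slc2a4, the insulin-regulated glucose transporter gene of fat and muscle, was at 9.73 and 9.66 TPM. With a mean count of at least 10, 3.51% of all genes were over 2-fold higher in replicate 1 and 1.20% in replicate 2. Nothing is read from lists this short having none.

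Over all fat lists without the 8 genes, 88 of 128 genes were detected. With a mean count of at least 10 there were 115 genes, of which 5 were over 2-fold higher in replicate 1 (Cfd, Cidec, Plin5, Gpd1 and Pck1) and 1 was over 2-fold higher in replicate 2 (Ppargc1a). That is near the background of 3.51% and 1.20% of all genes, and the median log2 ratio of these genes was 0.01. With a mean count of at least 50, 2 of 94 (Gpd1 and Pck1) were over 2-fold higher in replicate 1 and none in replicate 2. The shares of all genes at that minimum were 1.16% and 0.198%.

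**Figure D5:**
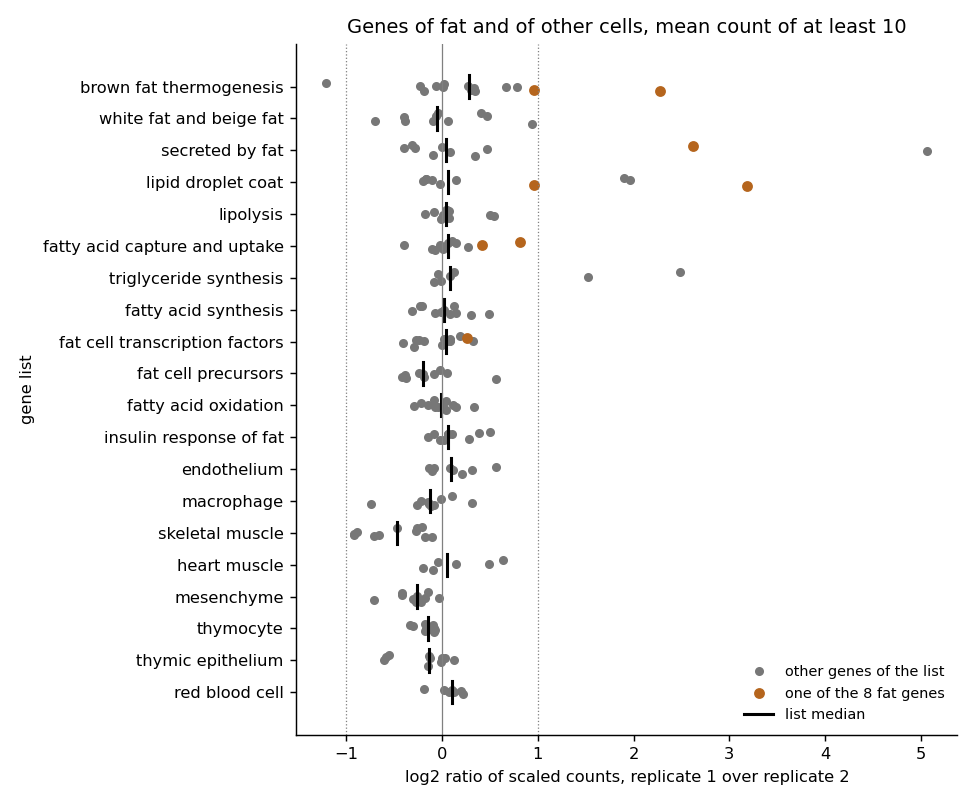
Log2 ratio, replicate 1 over replicate 2, of each gene with a mean count of at least 10 in 12 fat lists and 8 lists of other cells; black bars are list medians and the brown points are members of the 8 fat genes, with Plin1 at its bound against the floor of 3 counts. The fat list medians lie between -0.19 and 0.28, and Cfd is drawn at its fitted ratio, 5.07, from 80 and 2 counts.

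Markers of other cells in the tissue were set beside the 8 genes, with medians and counts of higher markers taken from scaled counts. Of 8 endothelial markers all were detected, 5 were higher in replicate 1, the median log2 ratio was 0.10 and they summed to 132 TPM in replicate 1 and 119 TPM in replicate 2; the highest was Pecam1 at 50.1 and 51.2 TPM and the lowest Flt1 at 2.36 and 1.56 TPM. Of 10 macrophage markers 8 were detected and 2 were higher in replicate 1, with a median of -0.13 and sums of 396 and 404 TPM, from C1qb at 102 and 110 TPM down to Marco at 0.32 and 0.52 TPM. Mesenchymal markers had 9 of 10 detected and 0 higher in replicate 1, with a median of -0.27 and sums of 406 and 472 TPM, from Col3a1 at 144 and 165 TPM down to Twist1 at 0.34 and 0.54 TPM.

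Muscle was looked at through skeletal and heart markers. Of 11 skeletal muscle markers 7 were detected and 0 of 11 were higher in replicate 1, with a median of -0.47 and sums of 41.4 TPM in replicate 1 and 59.3 TPM in replicate 2. The highest was the actin gene Acta1 at 12.0 and 18.4 TPM and the lowest Myod1 at 0.17 and 0.20 TPM. Heart markers were level, with 3 of 6 detected, 3 of 6 higher in replicate 1, a median of 0.05 and sums of 13.5 and 14.2 TPM, from Myl7 at 5.59 and 5.82 TPM down to Myh7 at 0.15 and 0.11 TPM.

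Most markers of the thymus itself were somewhat lower in replicate 1. Thymocyte markers had a median of -0.15, 0 of 10 higher in replicate 1 by scaled counts and sums of 4158 and 4337 TPM, from Lck at 1261 and 1219 TPM down to Cd4 at 83.8 and 84.4 TPM. Thymic epithelial markers had a median of -0.13, with log2 ratios from -0.61 to 0.12, 2 of 10 higher in replicate 1 and sums of 2082 and 2401 TPM, from Tbata at 554 and 828 TPM down to Aire at 7.22 and 8.34 TPM. Red blood cell markers had 5 of 7 detected and 6 of 7 higher in replicate 1, with a median of 0.10 and sums of 3104 and 2785 TPM, led by Hba-a2 at 1390 and 1242 TPM; Hba-a1 and Hba-a2 are near-identical copies whose reads the authors' estimate divides. The part of any of these cells in the differences of the 8 genes was not tested.

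The 5 protein-coding genes outside all lists whose log2 ratio was nearest the median of the 8 genes, at a mean count of at least 100, were Neurl1b, Stfa1, Upk3bl, Upk1b and Arg1. Likeness here is the distance in log2 ratio over 2 libraries. Neurl1b was at 1.06 TPM in replicate 1 and 0.32 TPM in replicate 2, a ratio of 3.04-fold. Upk3bl and Upk1b, genes of the uroplakin family, had ratios of 3.50-fold and 3.74-fold. Stfa1, one of a group of close copies among which reads may be divided, had a ratio of 2.77-fold, and the arginase gene Arg1 one of 2.50-fold.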

How the data were processed

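Total RNA of newborn mouse thymus was sequenced as 1 library per pup from 10 ng of RNA, with molecules above 200 nt kept and spike-ins added, per the labels' protocols. The group and replicate numbers came from the labels. For each library the authors deposited a gene table and a transcript table. The deposited expected counts are estimates with decimals and were not normalized. The deposited TPM and FPKM values are scaled by transcript length and library, and the deposited percent gives each transcript's share of its gene's TPM. The genome build is mm10 and the annotation M4, per the deposited read-me texts. Aligner, quantifier and strand setting were not given in the sources used here, so reads of overlapping antisense genes could not be told apart.

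Of 69691 rows, 43346 were genes; 96 spike-ins and 26249 other rows were left out of totals and held 0.00179% of counts in replicate 1 and 0.00107% in replicate 2. GENCODE M21 (GRCm38), joined on gene identifiers without version, named 42462 genes and gave coordinates. Promoters came from RefSeq on GRCm38.p6, and protein sequences were not used here. Rounded expected counts were scaled with TMM in edgeR 4.0.16 (R 4.3.3), and log2 ratios had a prior count of 0.5. Tables and exact intervals were made with Python 3.11.15, pandas 2.3.3, numpy 2.4.6 and scipy 1.17.1, and figures with matplotlib 3.10.9. The ratio step was tested on simulated data. Calls of 2-fold were made at a mean count of at least 50 and also at a minimum of 10. List medians used the minimum of 10.

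The 8 genes, the 26 gene lists and the tests were chosen with earlier results of these data known. Named genes were the 8, the 3 highest of each fat or family list, those over 2-fold, a set of fixed genes, the highest and lowest of each other-cell list (1 of which is not reported here), genes overlapping a member and the 5 nearest in ratio. Alternatives were DESeq2 1.42.0 size factors, total counts, spike-in scaling, other priors, minimums and detection levels, TPM or FPKM with a pseudocount of 0.1, and leaving out each library.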

Additional observations from a re-analysis of the deposited data

How the results depend on the processing

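Of 48 ratios of the 8 genes recomputed under other scalings, units and priors, 46 kept their direction. Pparg (log2 ratio -0.43) and Fabp4 (-0.27) turned round under spike-in scaling, whose factor rests on 659 and 427 counts. All alternatives but spike-in scaling moved the all-gene median by 0.05 or less, so they tested direction weakly. The smallest log2 ratio of the 8 was 0.26, for Pparg. Spike-in scaling also lowered the members' median log2 ratio to 0.95 from 1.62. The number of members over 2-fold higher in replicate 1 was 2 at a mean count of at least 50, against 1.16% of all genes. It was 4 at a minimum of 10, against 3.51%, 4 with no minimum and 0 at 500. The share of all genes was not computed with no minimum or at 500, so nothing is read from those counts. Fewer genes are tested at the higher minimum. The number detected, 4 at 1 TPM, was 2 at 5 TPM. With 1 library left out, 4 to 5 of the 8 reached 1 TPM. Plin1, with 0 counts in replicate 2, had a log2 ratio of 2.56 for TPM and 2.23 for FPKM with a pseudocount of 0.1, and 2.66 with a prior count of 5, beside 3.18 against the floor of 3 counts and 2.78 at the lower end of its exact interval. Depth limits Ucp1, Cidea and Plin1, which had 39 counts or fewer in each library. No paired analysis was possible because there is 1 group of 2 libraries.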
